A study of Mus musculus with 8 samples.

Results

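The summits described here lay at 9 genes chosen by name: Dot1l, the methyltransferase deleted in these mice, Zc3h10, the DNA-binding protein that the study names as its partner, and Mllt1, Mllt3, Mllt6, Mllt10, Aff1, Aff4 and Ell, which code for subunits of Dot1l complexes or of the super elongation complex. A summit is the highest point of an ATAC-seq peak. Every summit in the body of a member gene, or within 50 kb of the transcription start site (TSS) of 1 of its RefSeq mRNAs, was taken, whatever its score. This gave 89 of the 32173 summits that the authors deposited (0.277%), and 9 of 21000 genes with a curated mRNA on chromosomes 1 to 19, X and Y.

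ATAC-seq libraries were made from nuclei of brown adipose tissue (BAT) of 2 WT and 2 Dot1L-BKO mice, each mouse processed separately. The mice were 12 weeks old, ate chow and had spent 4 hr at 4°C. Per the study, WT mice were Dot1l f/f littermates without the deletion, and Dot1L-BKO mice came from crossing floxed Dot1l mice, themselves bred with FLPe mice, to Ucp1-Cre mice, so that both groups carry the floxed allele. By this design Cre is made in Ucp1+ cells, and other cells of BAT, such as endothelial and immune cells, would keep Dot1l. The study measured the loss of Dot1l in whole tissue of these mice and not by cell type. RNA-seq of such mice is not analysed here.

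The deposited values are 1 list for all 4 libraries, whose name sets WT against Dot1L-BKO. For each peak it gives a position in mm10 and a score, taken here as the −log10 of the q-value from MACS2, since the file does not name its unit and its lowest value, 1.31, lies just above that of a q-value of 0.05. Which libraries served as treatment and which as control, if any, is not given in the sources used here, and the list has no value for any library. If the libraries of 1 genotype were the control, a score measures the excess of the other genotype over it and not how open the chromatin was. Scores are therefore not read as openness, and a stronger summit below is only 1 with a higher score. No genotype difference, replicate error, read depth or check of the Dot1l deletion can therefore be drawn from it, and every value below describes the list as a whole. Scores came in steps: 95.3% of all summits had exactly the score of at least 1 other summit, and the 89 summits had 53 distinct scores, so that members with nearly equal scores are not ranked against each other. Of the markers checked, all 6 adipocyte genes (Ucp1, Cidea, Pparg, Adipoq, Plin1 and Fabp4) had a summit within 1 kb of a TSS, with scores from 6.02 to 61.5. None of the 3 skeletal muscle genes and neither of the 2 neuronal genes had one, while 1 of 3 endothelial genes (Cdh5, 2.59), 1 of 3 macrophage and leukocyte genes (Cd68, 2.15) and 1 of 2 hepatocyte genes (Apoa2, 8.94) did. Over all 21000 genes the share with such a summit was 45.2%, so that counts of 1 in these short lists do not mark a cell type as present or absent.

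Dot1l is the enzyme that methylates lysine 79 of histone H3, a mark found over the 5′ part of transcribed genes. It is brought to chromatin in complexes with Mllt3 or Mllt1, whose YEATS domains read acylated histones, and with Mllt10 or Mllt6, which contain PHD fingers and bind Dot1l through a coiled coil. Mllt1 and Mllt3 also belong to the super elongation complex, in which Aff1 or Aff4 is the scaffold for Ell, an elongation factor, and for P-TEFb, the kinase that releases paused RNA polymerase II. Zc3h10 is a CCCH zinc finger protein that binds upstream of Ucp1 in brown adipocytes.

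The 7 members with a summit within 1 kb of a TSS, called a promoter summit below, are shown first by the 200 bases around their strongest one, in mm10, read in the direction of transcription, since the comparison of promoters rests on these stretches. Capitals mark matches on either strand to short patterns: GGGCGG (SP/KLF), CCAAT (NFY), TGACG (CREB/ATF), CACGTG (E-box), CCGGAAG (ETS), AAGATGGCG (YY1), GCGCNTGCG (NRF1) and TGANTCA (AP-1), where N is any base.
Dot1l promoter, chr10:80754943-80755142, plus strand: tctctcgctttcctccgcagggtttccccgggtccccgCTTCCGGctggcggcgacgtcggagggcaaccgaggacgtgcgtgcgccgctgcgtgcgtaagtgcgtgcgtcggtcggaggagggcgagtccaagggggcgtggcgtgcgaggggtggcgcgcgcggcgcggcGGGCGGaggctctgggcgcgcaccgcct
Zc3h10 promoter, chr10:128547731-128547930, minus strand: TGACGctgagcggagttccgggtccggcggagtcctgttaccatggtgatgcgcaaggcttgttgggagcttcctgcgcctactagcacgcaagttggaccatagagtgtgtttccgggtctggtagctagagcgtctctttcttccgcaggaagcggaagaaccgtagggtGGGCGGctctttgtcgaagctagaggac
Mllt1 promoter, chr17:56935532-56935731, minus strand: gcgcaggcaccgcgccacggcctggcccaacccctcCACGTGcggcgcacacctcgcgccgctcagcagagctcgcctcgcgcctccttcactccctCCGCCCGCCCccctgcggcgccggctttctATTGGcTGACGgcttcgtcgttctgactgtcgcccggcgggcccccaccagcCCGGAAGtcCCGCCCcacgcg
Mllt10 promoter, chr2:18064016-18064215, plus strand: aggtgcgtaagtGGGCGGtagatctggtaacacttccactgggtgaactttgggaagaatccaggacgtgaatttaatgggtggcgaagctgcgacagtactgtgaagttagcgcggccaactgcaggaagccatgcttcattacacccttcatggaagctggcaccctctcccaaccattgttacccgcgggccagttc
Aff1 promoter, chr5:103753891-103754090, plus strand: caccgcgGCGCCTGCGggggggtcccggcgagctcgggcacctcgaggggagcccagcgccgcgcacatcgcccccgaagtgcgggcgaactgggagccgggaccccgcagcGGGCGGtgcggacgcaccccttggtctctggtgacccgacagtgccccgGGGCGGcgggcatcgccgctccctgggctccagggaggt
Aff4 promoter, chr11:53350671-53350870, plus strand: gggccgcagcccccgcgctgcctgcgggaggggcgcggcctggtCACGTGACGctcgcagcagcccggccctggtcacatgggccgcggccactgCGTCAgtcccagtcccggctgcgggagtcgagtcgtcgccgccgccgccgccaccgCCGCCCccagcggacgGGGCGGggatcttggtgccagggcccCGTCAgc
Ell promoter, chr8:70539268-70539467, plus strand: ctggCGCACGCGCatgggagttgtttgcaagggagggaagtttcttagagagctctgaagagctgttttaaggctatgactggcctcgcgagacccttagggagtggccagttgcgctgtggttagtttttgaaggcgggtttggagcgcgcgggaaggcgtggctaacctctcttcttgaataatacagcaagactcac
The other 3 are the strongest summits inside Dot1l, Aff1 and Ell away from the promoter, shown because the first 2 scored higher than the promoter of their own gene and the third had the highest score inside any member.
Dot1l intron 1, chr10:80757835-80758034, plus strand: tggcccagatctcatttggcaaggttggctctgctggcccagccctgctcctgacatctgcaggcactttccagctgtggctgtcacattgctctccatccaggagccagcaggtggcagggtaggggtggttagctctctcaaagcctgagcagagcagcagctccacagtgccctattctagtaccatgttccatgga
Aff1 intron 18, chr5:103848682-103848881, plus strand: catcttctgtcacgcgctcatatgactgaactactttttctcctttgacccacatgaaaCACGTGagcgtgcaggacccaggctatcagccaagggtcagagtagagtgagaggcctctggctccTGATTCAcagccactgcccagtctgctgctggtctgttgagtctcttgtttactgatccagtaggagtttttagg
Ell intron 1, chr8:70544255-70544454, plus strand: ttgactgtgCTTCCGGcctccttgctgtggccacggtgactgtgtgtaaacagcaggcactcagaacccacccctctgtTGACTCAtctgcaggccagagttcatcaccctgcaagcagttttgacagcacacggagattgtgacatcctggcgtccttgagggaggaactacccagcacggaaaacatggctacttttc

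Of the 9 members, 7 had a promoter summit (77.8%), and Mllt3 and Mllt6 did not. This compares with 45.2% of all 21000 genes. Scores of 10 or more were reached by 3 members (Dot1l, Mllt10 and Ell), beside 23.5% of all genes. A summit in the gene body was listed for 8 of 9 members, beside 39.7% of genes, and a summit in the body or within 50 kb of a TSS also for 8 of 9, beside 72.5%, so that the last count says little about these genes. Counted by start site, 8 of the 12 RefSeq mRNA TSSs of the members had a summit within 1 kb, beside 43.4% of 26032 TSSs. These shares were not tested, as 9 genes chosen by name are a description.

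**Figure D1:**
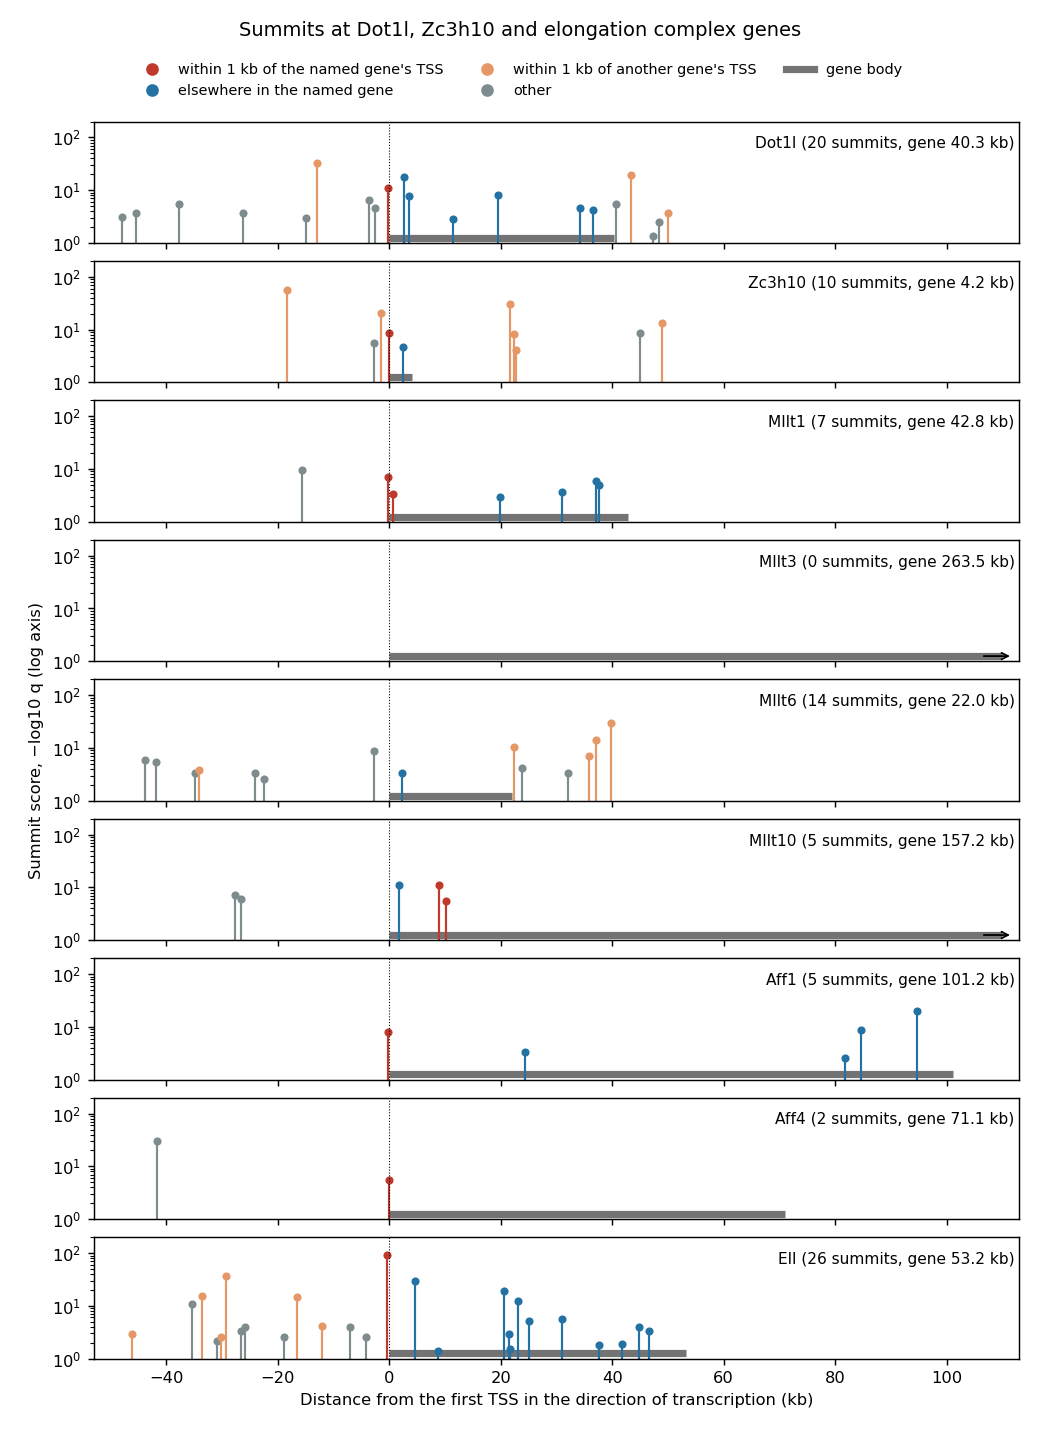
Score of each of the 89 summits (vertical log axis, −log10 q) by its distance in kb from the first TSS of the gene, 1 panel per gene, with the gene body as a grey bar and an arrow where it runs past the panel. Ell had 26 summits, Dot1l 20 and Mllt3 none, and the red summits of Mllt10 lay at its second TSS inside the gene.

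Dot1l (chr10:80755203-80795461, plus strand) had 20 summits in its locus, with scores from 1.33 to 33.3 and a median of 4.58. Its promoter summit was at 80755043, 160 bp upstream of its only curated mRNA TSS and 58 bp from the start of a predicted Dot1l mRNA. It had a score of 10.9, a score given to 481 summits of the list. This was above the median of 10.7 over the 9485 genes with a promoter summit by a small step, and 4478 genes had a higher one. A stronger summit lay inside the gene, at 80757935 in intron 1, 2732 bp downstream of the TSS, with a score of 18.1 and rank 3555 of 32173. A second summit of intron 1 followed at 3592 bp with a score of 7.58. Farther into the gene, summits were listed at 11428 bp in intron 3 (2.80), at 19571 bp in intron 7 (8.12), at 34310 bp in exon 25 (4.55) and at 36649 bp in intron 27 (4.15).

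Upstream of Dot1l, summits at 2536 bp and 3648 bp had scores of 4.61 and 6.45. The body of Dot1l thus held 6 summits in 40.3 kb, and 571 of 21000 genes (2.72%) had as many or more. The highest score of the locus was not at Dot1l but at the promoter of Ap3d1, which codes for an adaptor complex subunit, 12890 bp away, with 33.3. The promoters of Plekhj1 (19.4) and Amh (3.75) were the other 2 within the window. By nearest TSS, 7 of the 20 summits were those of Dot1l. The coordinates of the floxed part are not given in the sources used here, and no summit was placed relative to it.

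Zc3h10 (chr10:128543560-128547746, minus strand) is a short gene of 4187 bp. It had a promoter summit at 128547831, 85 bp upstream of the TSS, with a score of 8.65, a score given to 717 summits. Of the 9485 genes with a promoter summit, 5359 had a higher score. A weaker summit lay in exon 3, 2460 bp downstream of the TSS, with a score of 4.61. The 10 summits of the locus had scores from 4.16 to 57.6, but only these 2 were nearest to Zc3h10 itself.

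The neighbours of Zc3h10 had the higher scores. Rpl41, a ribosomal protein gene on the same strand, ends 364 bp upstream of the Zc3h10 TSS, and its own promoter summit, 1492 bp upstream of that TSS, had a score of 20.9. The summits at Pa2g4 (57.6, rank 366), which codes for a proliferation-associated protein, and Esyt1 (30.1), which codes for a membrane-tethering protein, were stronger still. Myl6b, a myosin light chain gene, had 13.4. In all, 6 of the 10 summits were promoter summits of other genes.

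Mllt1 and Mllt3, the 2 members with a YEATS domain, differed in this list. Mllt1 (chr17:56892611-56935388, minus strand) had 7 summits, with scores from 2.92 to 9.75. Its promoter held 2 of them, at 244 bp upstream (7.05) and at 617 bp downstream of the TSS in intron 1 (3.32). Of the other 4 inside the gene, 2 lay close together in intron 6, 37027 bp and 37593 bp downstream, with scores of 5.87 and 5.07. The highest score of the locus, 9.75, was 15604 bp upstream of the TSS, and Mllt1 was also the gene nearest to it.

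Mllt3 (chr4:87769925-88033407, minus strand) had no summit in its 263 kb or within 50 kb of either of its TSSs. The closest summit was 61135 bp upstream of its first TSS, with a score of 21.6. Long genes with no summit in the body were common, with 319 of 940 genes of 200 kb or more (33.9%), and 243 of these also had none within 50 kb of a TSS. The bases around the first Mllt3 TSS had a GC content of 75.5%, the same as at the Dot1l TSS. A summit is listed only where a peak passed the authors' cutoffs, so that the list does not show that chromatin at Mllt3 was closed.

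Mllt6 and Mllt10, which bind Dot1l through their coiled coils, also differed. Mllt6 (chr11:97663412-97685458, plus strand) lacked a promoter summit. The nearest were in intron 3, 2244 bp downstream (3.32), and 2783 bp upstream (8.65), the latter 230 bp from the start of the noncoding RNA gene Gm11613. Its locus had 14 summits in all, of which 5 were promoter summits of other genes and 2 were nearest to Mllt6. The highest score was 29.9 at Psmb3, a proteasome subunit gene 39830 bp away, followed by 14.0 at Pcgf2, a Polycomb group gene. With a promoter window of 5 kb, Mllt6 would count as having a promoter summit, and Mllt3 would remain the 1 member without.

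Mllt10 (chr2:18055237-18212390, plus strand) has 2 TSSs, and its promoter summits were both at the second, at 469 bp upstream (11.3) and 881 bp downstream (5.55) of it. Relative to the first TSS these lie in introns 1 and 2. The first TSS had no summit within 1 kb, and the nearest to it was 1731 bp downstream in intron 1, with a score of 10.9. The start of the noncoding RNA gene Mir7655 was nearer to this summit, at 878 bp. The GC content around the first TSS was 46.5%, the lowest of the 9 members. The remaining 2 summits of the locus, 27600 bp and 26535 bp upstream of the first TSS, had scores of 7.05 and 6.02. The mRNA gene nearest to both was Skida1, and the start of the noncoding RNA gene Gm17762 was 388 bp and 1453 bp from them. No summit was listed in the rest of this 157 kb gene.

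Aff1 and Aff4, the scaffolds of the super elongation complex, each had 1 promoter summit, with a score below the median of 10.7 over genes with one. Aff1 (chr5:103754162-103855322, plus strand) had it 171 bp upstream of the first of its 2 TSSs, with a score of 8.12. The gene body held 4 more, all in introns, and the strongest lay near the 3′ end, in intron 18 at 103848782, 94209 bp downstream of the nearest TSS, with a score of 20.1 and rank 3096. Intron 11 held summits at 84261 bp (8.65) and 81361 bp (2.53), and intron 1 held 1 at 23998 bp (3.32). The mRNA TSS nearest to the intron 18 summit was that of Klhl8, 62477 bp away.

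Aff4 (chr11:53350767-53421830, plus strand) had the summit closest to a start site of all members, 4 bp downstream of the TSS in exon 1, but also the lowest of the 7 promoter scores, 5.55. No other summit was listed in its 71.1 kb. The single further summit of the locus was 41683 bp upstream with a score of 29.6. Its nearest mRNA gene was Hspa4, a heat shock protein gene, 8605 bp away, but the start of the noncoding RNA gene Gm30525 was nearer, at 1303 bp.

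Ell stood out in score and number. The gene is at chr8:70539675-70592858 (plus strand), and its promoter summit, at 70539368, 307 bp upstream of the TSS, had a score of 92.7. The start of the noncoding RNA gene Gm51534 was nearer to this summit, at 161 bp, so that it cannot be given to Ell alone. Only 75 of the 32173 summits scored higher, and only 46 of the 9485 genes with a promoter summit had a higher one. The sequence around it was not masked as a repeat and had a GC content of 54.0%, as at the stronger Mllt10 promoter summit, with only the weaker Mllt1 promoter summit lower (53.5%). The highest score inside the gene was 30.1, in intron 1 at 70544355, 4680 bp downstream of the TSS.

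The body of Ell held 12 summits, all in introns and 8 of them in intron 1, which makes up 62.1% of the gene. Besides the one at 4680 bp, the strongest were at 20585 bp (18.8) and 23172 bp (12.2), while 5 of the 12 had scores under 3. As many or more summits in the body were found in 114 of 21000 genes (0.543%), and in 27 of the 2288 genes of 40 to 70 kb (1.18%), whose median was 0. The whole locus had 26 summits, of which 9 were nearest to Ell and 6 were promoter summits of other genes. Among these were summits at Rex1bd (15.05) and at Kxd1 (14.7). With a score of at least 10 the locus kept 8 of its 26 summits.

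**Figure D2:**
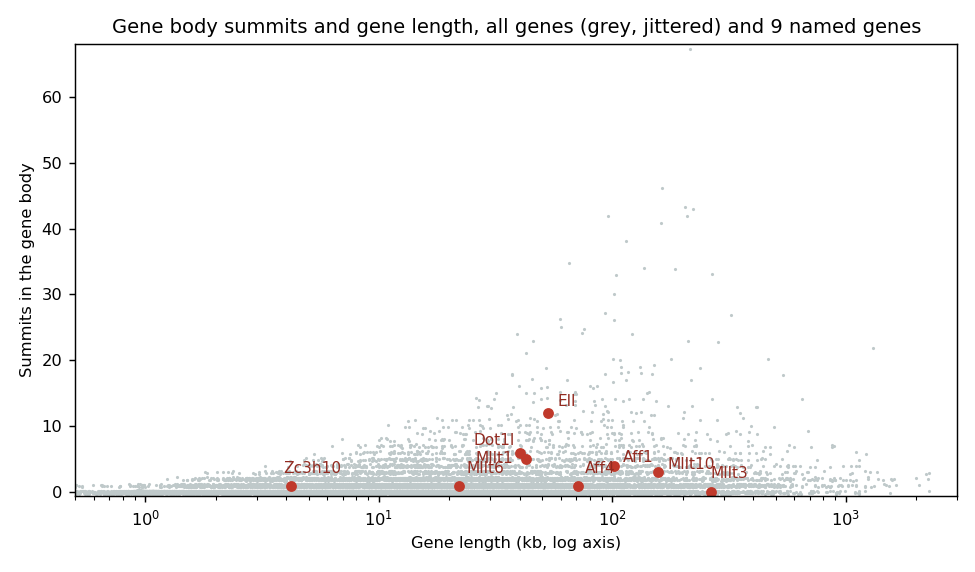
Number of summits in the gene body (vertical axis) by gene length in kb (log axis) for all 21000 genes in grey, jittered vertically, and the 9 members in red. Ell with 12, Dot1l with 6 and Mllt1 with 5 sit above most genes of their length, and Mllt3 sits at 0.

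The strongest promoter summits of the 7 members had a median score of 8.65, beside 10.7 over the 9485 genes with a promoter summit, and Mllt3 and Mllt6 had none to count. Ell was far above the others, which were Mllt10 (11.3), Dot1l (10.9), Zc3h10 (8.65), Aff1 (8.12), Mllt1 (7.05) and Aff4 (5.55), with no replicate error to separate neighbouring values. All 6 lay between the lower quartile of the genes, 5.55, and the median or just above it, and under the upper quartile of 20.9. Dot1l and Zc3h10, the pair that the study is about, thus had promoter scores in the middle range of this list.

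**Figure D3:**
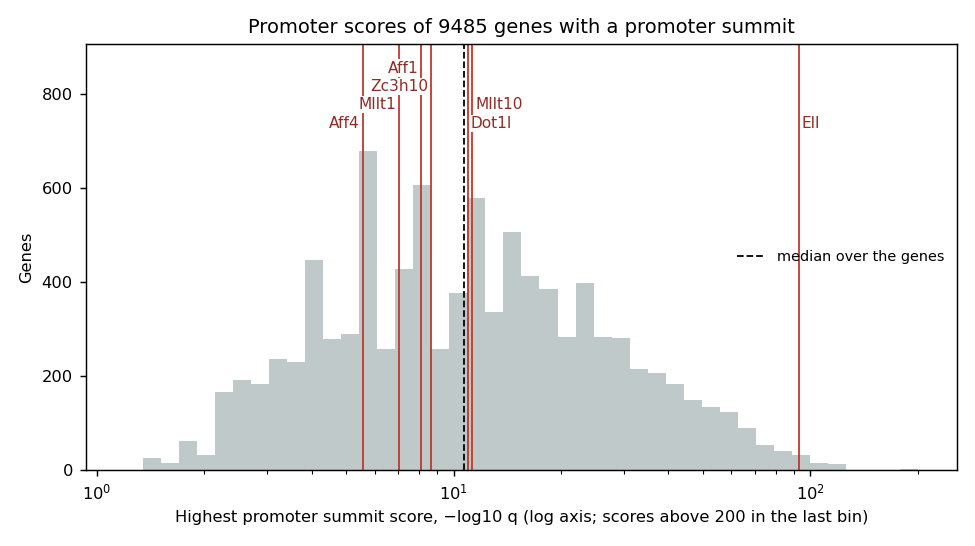
Histogram of the highest promoter summit score (−log10 q, log axis) of the 9485 genes that have one, with the 7 members as red lines and the median of 10.7 as a dashed line. Ell, at 92.7, is in the upper tail, and the other 6 lie from 5.55 to 11.3.

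Away from the promoters, the 89 summits fell into 29 elsewhere in the member genes (32.6%), 20 at promoters of other genes (22.5%) and 31 others (34.8%), beside the 9 promoter summits of the members (10.1%). Median scores were 8.12 at member promoters, 4.55 elsewhere in the member genes, 13.7 at promoters of other genes and 3.97 at the rest. For comparison, the median was 8.65 over all 10375 summits this close to any TSS and 4.16 over the 21798 elsewhere. Only 30 of the 89 summits (33.7%) had a member TSS as their nearest. Of the 33 summits in the bodies of the member genes, 30 were in introns, 14 of them in intron 1, and 3 in exons. Ell alone gave 8 of the 14, and its intron 1 makes up 62.1% of the gene. The same shares over all genes are not given here, so these counts are not read as a trait of the members.

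A summit 1 to 5 kb downstream of a TSS was present in 5 members, Dot1l, Zc3h10, Mllt6, Mllt10 and Ell, beside 13.3% of all genes. With a score of at least 10 these were 3, Dot1l (18.1), Mllt10 (10.9) and Ell (30.1), beside 2.34% of all genes. This window was chosen after the values had been seen. In Dot1l and Aff1, 2 of the 7 members with a promoter summit, the strongest summit elsewhere in the gene scored above the promoter, as in 10.5% of the 9485 genes with a promoter summit.

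The start sites of the members were rich in G and C, like those of most genes with a promoter summit, but this did not separate the 2 members that lacked one. In the 200 bp around the first TSS, 8 of the 9 members had a GC content of at least 60%, from 64.5% at Zc3h10 to 83.0% at Mllt1, and 6 of these 8 had a promoter summit. Of all 11029 genes with such a GC content, 65.7% had one. Mllt3 and Mllt6 were both at 75.5%, with ratios of observed to expected CpG of 0.856 and 0.832, beside medians of 66% and 0.866 over all genes with a promoter summit and 54.0% and 0.333 over the 11515 without.

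**Figure D4:**
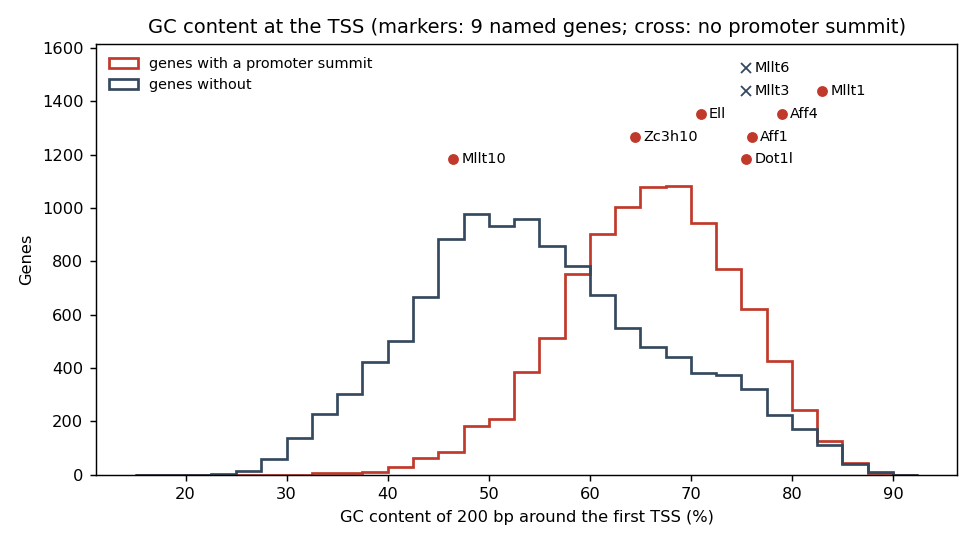
GC content in percent of the 200 bp around the first TSS (horizontal axis) for genes with a promoter summit (red) and without (dark blue), with the 9 members as markers placed above for legibility. Mllt3 and Mllt6 (crosses) have the same 75.5% as Dot1l, and Mllt10 is lowest at 46.5%.

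The 9 promoter summits of the members had a median GC content of 74.0% in the 200 bases around them, beside 62.5% over all 10375 summits within 1 kb of a TSS. None lay in sequence that was mostly masked as repeat, beside 0.559% of the 10375, so that this says little about the members. In the sequences printed above and the 2 weaker promoter summits of Mllt1 and Mllt10, GGGCGG was in 6 of 9 windows, beside 44.8% of the 10375. TGACG was in 4 of 9, beside 23.0%, and CACGTG in 3 of 9, beside 6.43%. The 3 with CACGTG were Mllt1, Mllt10 (the weaker summit) and Aff4, where it runs into a TGACG and both share bases. CCGGAAG was in 2, Dot1l and Mllt1, beside 11.6%, and GCGCNTGCG in 2, Aff1 and Ell, beside 8.25%. CCAAT was in 1, Mllt1, beside 27.7%. AAGATGGCG and TGANTCA were in none, beside 1.60% and 3.69%.

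The Ell promoter window and the stronger Mllt10 window each held a match to 1 of the 8 patterns, and the stronger Mllt1 window held matches to 5, the most of the 9. Among the 29 summits elsewhere in the member genes, shares lay above and below those of the 21798 summits more than 1 kb from a TSS. GGGCGG was in 6, beside 9.04%, TGANTCA in 5, beside 7.66%, CACGTG in 3, beside 3.80%, and CCGGAAG in 2, beside 2.36%. CCAAT was in 5, beside 23.4%, and TGACG in none, beside 10.8%. AAGATGGCG and GCGCNTGCG were also in none, beside 2.41% and 0.592%. The printed summits of Aff1 intron 18 and Ell intron 1 are among the 5 with TGANTCA. The printed summit of Dot1l intron 1 matched none of the 8 patterns. A match is a stretch of letters and not a bound site, and the lack of one says only that these letters are not in this window.

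The other genes of the elongation and Dot1l pathways mostly had promoter summits. Of 42 such genes in 6 lists, 38 had one (90.5%), beside 45.2% of all genes. With the Zc3h family, which is grouped by name, these were 50 of 59 genes (84.7%), and 27 (45.8%) had one with a score of at least 10, beside 23.5% of all genes. The median of the 50 scores was 12.8, beside 10.7 over all genes with a promoter summit. Counts of single lists below are to be read beside the same 45.2%. All 8 genes listed for P-TEFb and its partners had one, with Larp7, which binds 7SK RNA, the highest (53.8), and Cdk9, the kinase itself, had 25.9. All 10 pausing and elongation factors had one, with Tcea1, which codes for elongation factor TFIIS, the highest (41.01). All 6 PAF1 complex genes had one, with Ctr9 the highest (24.9) and Cdc73 the lowest (2.15).

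All 5 genes of H2B ubiquitylation, a mark that stimulates Dot1l, had a promoter summit, with Rnf40, an E3 ligase subunit, the highest (17.4). In the KMT2A complex 6 of 7 had one, with Men1 the highest (19.4), and Rbbp5 had none. In the Zc3h family without Zc3h10, 12 of 17 had one, with Zc3h12a, an RNase, the highest (19.4), and Zc3h7b, Zc3h12b, Zc3h12c, Zc3h12d and Zc3hc1 had none. The super elongation subunits outside the 9 members were split. Ell2 (73.8), Eaf2 (48.2) and Eaf1 (8.12) had a promoter summit, while Ell3, Aff2 and Aff3 did not. Within the Ell family, Ell and Ell2 thus both had very high scores and Ell3 had no promoter summit. The Ell summit lay nearer to the start of Gm51534, as said above, and cannot be given to Ell alone. Within the Aff family, Aff1 and Aff4 had a promoter summit and Aff2 and Aff3 had none.

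**Figure D5:**
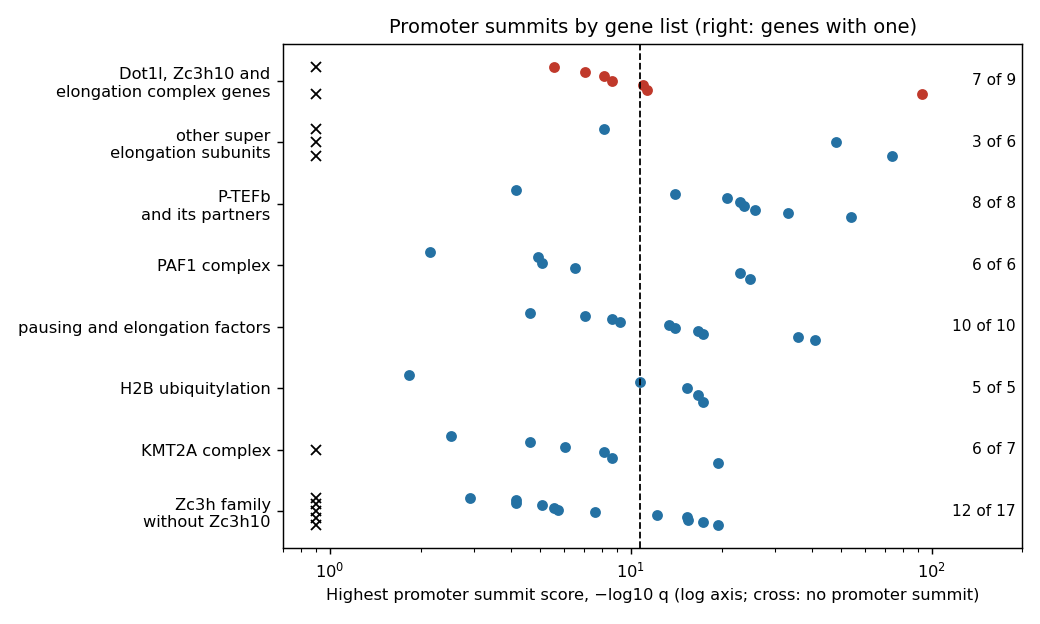
Highest promoter summit score (−log10 q, log axis) of each gene, by list, with the 9 members in red, genes without a promoter summit as crosses and the median over all genes with one, 10.7, as a dashed line. The counts at the right run from 3 of 6 for the other super elongation subunits to 8 of 8 for P-TEFb and its partners.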

How the data were processed

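Nuclei from BAT of 2 mice per genotype were assayed by ATAC-seq with a Nextera kit. Per the labels and the study's methods, the authors aligned paired-end reads to mm10 with BWA and called peaks with MACS2 2.1.1 in ATAC mode in Partek Flow, keeping peaks that passed a q-value of 0.05 and 2.0 in fold enrichment. The submitters' processing notes give the MACS2 version and also name cutadapt 1.2.1, bcl2fastq 2.2 and CASAVA. Transposase shifting and the handling of multi-mapped reads are not given in the sources used here. In the deposited list each peak has a single position and a single score, which was taken as the −log10 of the q-value from its lowest value, as the unit is not named. There is no value per library, and which libraries were treatment or control is not given. Depth per library is unknown, and no test was made.

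Summits were placed against RefSeq mRNAs (curated, annotation of GRCm38.p6, the same build as mm10). Each distance is to the nearest TSS of the gene named, unless the first TSS is named. Repeat masking and sequences were read from the same RefSeq genome. All 9 members, the 59 genes of the 7 lists and the markers were found by symbol. The members and lists were chosen with earlier results of these data known. Named were all members with their promoter summits and the strongest summit of each locus, and, of each list, genes with none and the highest; further gene body summits and list genes were named after their values were seen, and the gene length classes and the GC class were also chosen then. Some neighbouring and list genes that were counted are not reported here by name. Placement was tested on simulated data, and 200 of 200 planted summits were given to the right gene. All were planted within 1 kb of genes with a single TSS that lay over 5 kb from any other TSS. The check therefore covers the computation and not crowded loci or genes with several TSSs. Alternatives changed the score minimum, merged summits, the transcripts and the windows. The tools were samtools 1.23.1 and, under Python 3.11.15, pandas 2.3.3, numpy 2.4.6, scipy 1.17.1 and matplotlib 3.10.9.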

Additional observations from a re-analysis of the deposited data

How the results depend on the processing

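No paired analysis was possible because single libraries have no values of their own here, and for that reason no replicate was left out either. Read depth, which is unknown, and the cutoffs of the list limit every count: peaks under the cutoffs are not listed.

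The choice of score minimum and of window moved the counts, by construction. With a score of at least 5 the loci held 48 summits with a median of 9.20. With a score of at least 10 they held 23 with a median of 18.8, the members with a promoter summit were 3 and the genes of the 7 lists with one were 27. Locus windows of 10 kb, of 100 kb and of the gene body alone gave 45, 182 and 33 summits, of which 64.4%, 16.5% and 60.6% were nearest to a member TSS. Among single loci, 13 of 18 counts moved by more than 1.5 times with a score minimum, all to lower counts, and Mllt3 stayed at 0. Merging summits within 500 bp (87 summits in the loci), adding predicted mRNAs (90) and promoter windows of 500 bp and 5 kb moved no count by over 1.5 times, and the promoter count of the members was 7 under these, except 8 with the window of 5 kb.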
